A study of Arabidopsis thaliana with 24 samples.

Results

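Expression of 9 Arabidopsis thaliana genes of embryo surface signalling was read from 24 RNA-seq libraries of early embryos. The genes were taken by locus number from the 32399 loci measured, and all 9 were found: the protease gene ALE1 (AT1G62340), the receptor kinase genes ALE2 (AT2G20300), ACR4 (AT3G59420), GSO1 (AT4G20140) and GSO2 (AT5G44700), the transcription factor genes ZOU (AT1G49770) and ICE1 (AT3G26744), the peptide gene TWS1 (AT5G01075) and the calpain gene DEK1 (AT1G55350). AT5G01075 is called TWS1 here because the selection names it so; RefSeq gives it no symbol and describes it as a glycosyl hydrolase family 35 protein. The 24 libraries form 8 groups of 3. Apical cells and basal cells came from embryos of 2 cells, and embryo proper and suspensor from embryos of 32 cells. Each cell type was taken from both directions of a cross, a Columbia (Col) mother with a Landsberg erecta (Ler) father and the reverse, so every embryo is a hybrid carrying both genomes and no inbred embryo was measured. Each cell type thus has 6 libraries, and levels are given as FPKM, the number of fragments per kilobase of transcript per M fragments mapped.

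As background, an embryo of this plant lies inside the endosperm and must seal its own surface with a cuticle. ZOU and ICE1 are helix-loop-helix proteins that act together in the endosperm and are needed there for the expression of ALE1, a subtilisin-like protease. The TWS1 precursor is made in the embryo and is cut by ALE1, and the sulfated peptide that results is sensed by the leucine-rich repeat receptor kinases GSO1 and GSO2 on the embryo. ACR4 and ALE2 are further receptor kinases needed for epidermal development, and DEK1 is a membrane-bound calpain needed for epidermal identity. In bulk samples such as these, fewer cells of a type and less RNA per cell cannot be told apart.

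The 250 bases before the annotated start were read for all 9 genes from RefSeq TAIR10.1. They are shown for TWS1, the gene with the largest difference between cell types among the 9, and for the receptor pair GSO1 and GSO2. TWS1 lies at chr5:26848-27504 on the minus strand with 2 exons, and its window is chr5:27505-27754. GSO1 lies at chr4:10883921-10888270 on the plus strand with 2 exons (window chr4:10883671-10883920). GSO2 lies at chr5:18032864-18037323 on the minus strand with 2 exons (window chr5:18037324-18037573). Each is written 5′ to 3′ on the gene's strand, and capitals mark matches to the E-box CANNTG or to the L1 box TAAATGCA or TAAATGTA.
TWS1: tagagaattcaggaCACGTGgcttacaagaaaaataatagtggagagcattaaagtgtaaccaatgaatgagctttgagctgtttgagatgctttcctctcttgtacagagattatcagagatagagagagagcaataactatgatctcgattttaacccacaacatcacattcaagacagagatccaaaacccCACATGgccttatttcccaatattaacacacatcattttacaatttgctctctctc
GSO1: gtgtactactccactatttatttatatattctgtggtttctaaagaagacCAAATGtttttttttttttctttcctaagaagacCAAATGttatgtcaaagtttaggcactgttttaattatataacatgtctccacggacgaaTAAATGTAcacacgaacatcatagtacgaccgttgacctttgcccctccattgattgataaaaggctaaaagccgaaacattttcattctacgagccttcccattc
GSO2: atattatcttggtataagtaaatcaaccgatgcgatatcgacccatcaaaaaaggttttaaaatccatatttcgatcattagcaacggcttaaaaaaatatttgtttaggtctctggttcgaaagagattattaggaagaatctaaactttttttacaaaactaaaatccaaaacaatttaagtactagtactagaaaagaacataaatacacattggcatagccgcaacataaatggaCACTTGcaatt
The E-box is the word bound by helix-loop-helix proteins, the class to which ICE1 and ZOU belong. Both strands were searched. It occurred in the windows of 6 of the 9 genes, against 55.3% of the 27443 windows of all protein-coding genes. The G-box CACGTG, an E-box of its own kind, occurred in TWS1 alone among the 9, beginning 236 bases before the start, and in 6.49% of all windows. The L1 box, a word bound by epidermal homeodomain proteins such as ATML1 and PDF2, occurred in GSO1 alone among the 9, beginning 106 bases before the start, and in 4.49% of all windows. These are matches of letters only.

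Library facts that touch the results are few. Summed FPKM ran from 912475 to 1249916 per library, and depth, which is not stated, was estimated at 12.6 to 33.3 M fragments. The 10 most abundant loci held 16.1 to 26.3% of the summed FPKM in the suspensor libraries and 4.32 to 6.73% in the others, and the median correlation of a library with its own replicates was 0.904 in the suspensor, and elsewhere it was 0.942 to 0.983. Of the 7 lineage markers, 5 differed between apical and basal cells and all 7 between embryo proper and suspensor by limma, each call in the direction of its lineage. WOX8, a homeobox gene of the basal lineage, averaged 239 ± 32.4 FPKM in the basal cell and 373 ± 27.6 in the suspensor, against 38.9 ± 21.5 in the apical cell and 0.488 ± 0.507 in the embryo proper (SD, n = 6 each). ZPR3, a gene of the embryo proper, averaged 236 ± 75.8 FPKM there and reached at most 0.16 in any suspensor library; it was at 0 in apical and basal cells. WOX9 and PIN7, of the basal lineage, were higher in the basal cell (342 ± 84.0 and 10.07 ± 5.17 FPKM) than in the apical cell (12.4 ± 8.41 and 1.03 ± 1.04). WOX9 also averaged 105 ± 16.9 in the embryo proper, against 229 ± 87.6 in the suspensor, and was higher in the embryo proper than in the apical cell (adjusted p = 2.65e-07). PIN7 averaged 3.01 ± 1.78 in the embryo proper and 57.3 ± 20.7 in the suspensor. DRN and HAN, of the apical lineage, averaged 54.9 ± 13.1 and 184 ± 49.6 in the apical cell against 2.54 ± 2.34 and 30.7 ± 16.2 in the basal cell. WOX2, also of the apical lineage, did not pass between apical and basal cells (166 ± 76.3 and 94.4 ± 27.1 FPKM, adjusted p = 0.188), and its basal cell mean was close to the 88.0 ± 12.0 of the embryo proper.

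TWS1, the peptide gene, was detected at the 32-celled stage. It was listed at 0 in all 6 apical cell and all 6 basal cell libraries. In the embryo proper it stood at 136.19, 60.23 and 108.46 FPKM with a Col mother and at 99.37, 59.11 and 101.08 with a Ler mother, a mean of 94.1 ± 29.8 (SD, n = 6). In the suspensor it stood at 3.96, 0.09 and 19.22 FPKM with a Col mother and at 10.87, 0.12 and 0 with a Ler mother, a mean of 5.71 ± 7.84. Every embryo proper library lay above every suspensor library, and the suspensor libraries fell into 3 that held 3.96 or more and 3 at 0.12 or less. TWS1 is short, with a transcript of 574 bases, so that 1 fragment is worth about 0.0803 to 0.212 FPKM at the estimated depths, and 3 fragments at the lowest depth come to 0.637.

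In limma with Benjamini-Hochberg adjustment over the 18206 genes tested, TWS1 was higher in embryo proper than suspensor by 4.76 ± 0.58 on the scale of log2(FPKM + 1) (SE, adjusted p = 4.22e-07). It rose between apical cell and embryo proper (adjusted p = 1.14e-08) and from the basal cell to the suspensor (adjusted p = 0.0176), with no fold given because the earlier cell type was at 0. The rise along the basal lineage lost its call without suspensor Col replicate 3 (adjusted p = 0.0663) and without suspensor Ler replicate 1 (adjusted p = 0.0614). It was also lost without the 4 libraries whose labels name another kit choice (adjusted p = 0.178), with a Ler mother alone (adjusted p = 0.258) and in a fit of only the groups compared (adjusted p = 0.105).

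Other markers of the embryo proper were read in the same suspensor libraries. In Col replicate 3, where TWS1 was highest at 19.22 FPKM, ZPR3 was at 0, WOX2 at 1.58, HAN at 1.25 and DRN at 3.68. In Ler replicate 1, with TWS1 at 10.87, ZPR3, HAN and DRN were at 0 and WOX2 was at 9.84. In Col replicate 1, with TWS1 at 3.96, ZPR3 was at 0.16, WOX2 at 3.35, HAN at 5.27 and DRN at 0. The other 3 suspensor libraries held at most 0.14 of HAN and 1.48 of WOX2, with ZPR3 and DRN at 0. The means in the embryo proper were 236 for ZPR3, 88.0 for WOX2, 117 for HAN and 39.6 for DRN. The part of these markers in the TWS1 values was not tested.

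**Figure D1:**
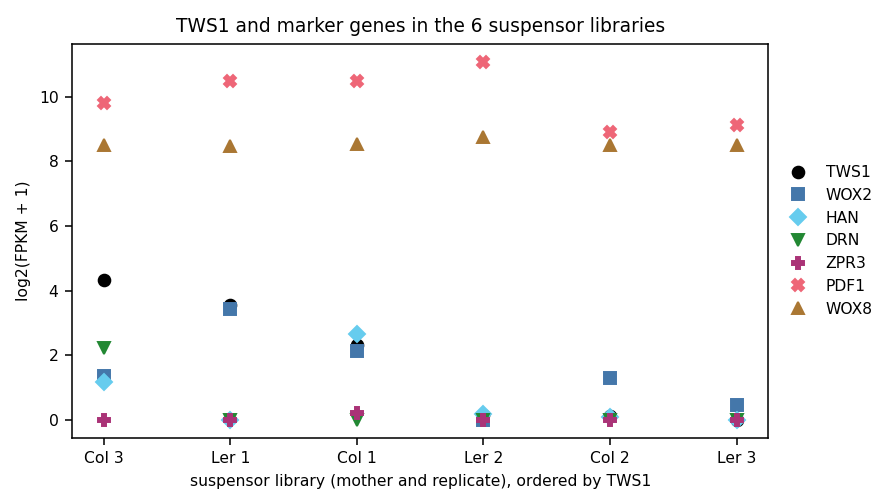
TWS1 and 6 marker genes in the 6 suspensor libraries, as log2(FPKM + 1); libraries are named by mother and replicate and ordered by TWS1, and each symbol is 1 library. TWS1 runs from 19.22 FPKM in Col replicate 3 to 0 in Ler replicate 3, ZPR3 stays at or below 0.16, and WOX8 and PDF1 are high in all 6.

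ALE1, the protease gene (chr1:23051002-23055672, minus strand, 10 exons), was listed at 0 in 22 of the 24 libraries. The exceptions were embryo proper Col replicate 1 and embryo proper Ler replicate 1, at 0.02 FPKM each, a level that about 1 fragment gives: 1 fragment is worth 0.0123 to 0.0326 FPKM for this gene, and 3 fragments at the lowest depth come to 0.0977. ZOU, the endosperm transcription factor gene (chr1:18424578-18426782, plus strand, 3 exons), was listed at 0 in all 24, where 3 fragments at the lowest depth come to 0.244. Neither gene was tested. Both are genes of the endosperm, so endosperm markers were read beside them. Of 17 such markers, 8 were at 0 in all 6 apical cell libraries, 10 in the basal cell, 5 in the embryo proper and 5 in the suspensor, and PHE1, YUC10 and AT1G10747 were at 0 in all 24. Their summed FPKM ran from 29.0 to 69.8 in the apical cell, 92.1 to 445 in the basal cell, 21.5 to 32.9 in the embryo proper and 102 to 278 in the suspensor. Most of that sum in the basal lineage was SUC5, a sucrose transporter gene, with means of 250 ± 139 FPKM in the basal cell and 161 ± 70.7 in the suspensor. AGL62, a MADS-box gene of the early endosperm, averaged 5.88 ± 6.56 in the basal cell and 11.4 ± 11.4 in the suspensor, against 0.247 and 0.598 in apical cells and embryo proper, and AT1G10745 averaged 9.42 ± 11.8 and 24.9 ± 21.0 against 0 and 3.99 ± 4.57. EDE1 went the other way: it averaged 12.1 ± 3.84 FPKM in the apical cell, 7.86 ± 7.49 in the basal cell, 10.98 ± 4.87 in the embryo proper and 0.662 ± 0.987 in the suspensor, where it was lower than in the embryo proper (adjusted p = 1.06e-05). IKU1 was likewise higher in embryo proper (10.4 ± 2.41) than suspensor (5.83 ± 4.23; adjusted p = 0.0486), and IKU2 was at 0.772 ± 0.744 in the apical cell and near 0 elsewhere. Of the 9 endosperm markers tested, 2 were called higher and 3 lower in embryo proper against suspensor, and 1 higher and 2 lower in apical against basal cell (5 and 3 of 9, where 50.9% and 24% of all genes were called). Of 16 seed coat markers, 6, 6, 4 and 5 were at 0 in all libraries of apical cells, basal cells, the embryo proper and the suspensor, and their sum stayed between 3.08 and 67.7 FPKM in every library. Of the 8 seed coat markers tested, 3 were called in each of the 4 comparisons of cell types, where 24%, 50.9%, 21.9% and 44.9% of all genes were called. KAN4 averaged 15.5 ± 19.9 in the apical cell, 10.97 ± 1.64 in the embryo proper and 2.4 ± 2.64 in the suspensor and was at 0 in the basal cell. STK averaged 17.7 ± 5.71 in the embryo proper and 7.42 ± 4.83 in the suspensor, MUM4 13.7 ± 2.67 and 1.503 ± 2.35, and both were below 1.6 on average in apical and basal cells. MYB5 averaged 6.61 ± 6.56 and 12.5 ± 7.27 in apical and basal cells and was near 0 at the later stage. DFR and CHS were higher in the basal than the apical cell (adjusted p = 0.0118 and 0.0424), and GL2 fell between basal cell and suspensor (adjusted p = 0.0372). The part of endosperm and seed coat markers in the other results was not tested.

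The receptor genes GSO1 and GSO2 were present in all 24 libraries, and both were highest in the basal cell and lowest in the suspensor. GSO2 stood at 25.26, 21.49 and 41.21 FPKM in the basal cell with a Col mother and at 32.6, 33.45 and 39.56 with a Ler mother. In the suspensor it stood at 5.36, 7.11 and 3.48 with a Col mother and at 8.11, 16.1 and 16.12 with a Ler mother. Every basal cell library lay above every suspensor library. The means were 32.3 ± 7.74 FPKM in the basal cell, 25.8 ± 10.2 in the apical cell, 18.1 ± 4.5 in the embryo proper and 9.38 ± 5.45 in the suspensor (SD, n = 6 each), and neighbours in that order had overlapping ranges.

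GSO2 fell from the basal cell to the suspensor by 1.82 ± 0.29 on the scale of log2(FPKM + 1) (limma, adjusted p = 2.14e-05), a 3.52-fold change on that scale, and the call held under every alternative run. It was higher in embryo proper than suspensor by 1.01 ± 0.29 (limma, adjusted p = 0.00559). With a Ler mother alone that difference was 0.42 (adjusted p = 0.449), and with a Col mother alone 1.60 (adjusted p = 0.00368). The contrast of that difference between crosses was not tested. The difference between apical and basal cell did not pass (log2 difference -0.36 ± 0.29, adjusted p = 0.399), nor did that between embryo proper and apical cell (-0.44 ± 0.29, adjusted p = 0.325).

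GSO1 had its highest and lowest means in the same cell types as GSO2. It stood at 27.07, 25.69 and 38.73 FPKM in the basal cell with a Col mother and at 17.69, 22.43 and 14.63 with a Ler mother. In the suspensor it stood at 13.23, 6.5 and 11.5 with a Col mother and at 21.72, 17.8 and 12.96 with a Ler mother. The groups did not overlap with a Col mother and did overlap with a Ler mother. The means were 24.4 ± 8.47 FPKM in the basal cell, 19.0 ± 4.61 in the embryo proper, 15.0 ± 4.40 in the apical cell and 14.0 ± 5.26 in the suspensor, with overlapping ranges throughout. From basal cell to suspensor it fell by 0.78 ± 0.27 on the log2 scale (limma, adjusted p = 0.0205). That difference was -1.49 with a Col mother alone (adjusted p = 0.0039) and -0.07 with a Ler mother alone (adjusted p = 0.946), a contrast between crosses that was not tested. The call was lost without suspensor Col replicate 2 (adjusted p = 0.0593), without basal cell Ler replicate 2 (adjusted p = 0.0529) and without basal cell Col replicate 3 (adjusted p = 0.0524). It was also lost with the kit wording as a covariate (adjusted p = 0.0659), without the 4 libraries of other wording (0.0874), with median-ratio scaling (0.0522) and with library weights (0.0836).

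GSO1 overlaps AT4G20150 on the opposite strand by 337 bases, and AT4G20150 was far more abundant, with means of 535, 766, 601 and 1062 FPKM in apical cells, basal cells, the embryo proper and the suspensor. Whether counting used strand is not given in the sources used here, so part of the GSO1 values may be reads of AT4G20150 and GSO1 is uncertain. From basal cell to suspensor AT4G20150 rose by 0.38 ± 0.13 on the log2 scale (limma, adjusted p = 0.0191) where GSO1 fell. Between apical and basal cell it differed by -0.52 ± 0.13 (limma, adjusted p = 0.00471), where GSO1 differed by -0.65 without a call. Between embryo proper and suspensor it differed by -0.73 ± 0.13 (limma, adjusted p = 5.26e-05), and GSO1 by 0.46 without a call. Between embryo proper and apical cell the differences were 0.17 and 0.33, neither called. The part of AT4G20150 in the GSO1 values was not tested. The transcripts of GSO1 and GSO2 share 0 words of 50 bases, so reads of that length can be told apart between them.

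The balance between the pair was also read within each library, where FPKM allows genes of different length to be compared. The median ratio of GSO2 to GSO1 FPKM was 2.16 in the apical cell, 1.28 in the basal cell, 0.954 in the embryo proper and 0.655 in the suspensor. GSO2 was the higher gene in 4 of 6 apical cell libraries, 4 of 6 basal cell libraries, 2 of 6 embryo proper libraries and 2 of 6 suspensor libraries. With a Ler mother it was higher in every apical and basal cell library, at ratios of 1.49 to 2.70. With a Col mother the ratios were 2.51, 0.943 and 0.887 in the apical cell and 0.933, 0.837 and 1.06 in the basal cell. The ratio was not tested between crosses, and it carries the uncertainty of GSO1 given above. The ratios ranged from 0.887 to 2.51, 0.837 to 2.70, 0.761 to 1.27 and 0.303 to 1.24 in the same order, so the ranges overlap.

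**Figure D2:**
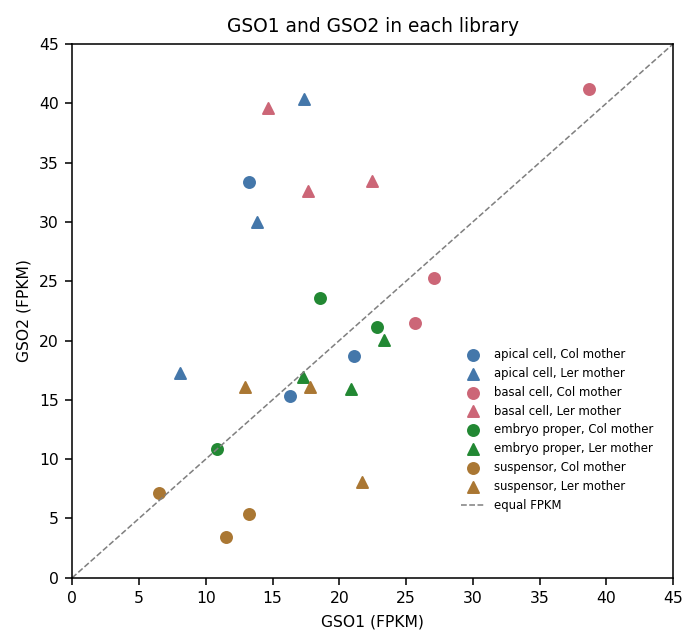
GSO1 (horizontal axis) and GSO2 (vertical axis) in FPKM, 1 symbol per library, coloured by cell type, with circles for a Col mother and triangles for a Ler mother; the dashed line is equal FPKM. The 3 suspensor libraries with a Col mother are lowest for GSO2, at 3.48 to 7.11, and the basal cell libraries reach 41.21.

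ACR4, the CRINKLY4 receptor kinase gene (chr3:21959646-21963180, minus strand, 1 exon), was low in all cell types and highest in the embryo proper. There it stood at 4.95, 3.9 and 6.55 FPKM with a Col mother and at 4.96, 4.29 and 7.63 with a Ler mother. In the suspensor it stood at 3.38, 0 and 2.38 with a Col mother and at 0.08, 5.1 and 0.13 with a Ler mother. The suspensor libraries divide into 3 at 2.38 or more and 3 at 0.13 or less, and the highest of them, Ler replicate 2, reaches into the range of the embryo proper. The means were 5.38 ± 1.43 FPKM in the embryo proper, 1.95 ± 1.35 in the apical cell, 1.85 ± 2.13 in the suspensor and 0.44 ± 1.01 in the basal cell, where 5 of 6 libraries held 0.09 or less and Ler replicate 1 held 2.51.

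ACR4 was higher in embryo proper than suspensor by 1.51 ± 0.46 on the scale of log2(FPKM + 1) (limma, adjusted p = 0.0088). The difference was 1.3 with a Col mother alone (adjusted p = 0.131) and 1.73 with a Ler mother alone (adjusted p = 0.039), and the crosses were not tested against each other in it. The difference of 1.23 ± 0.46 between embryo proper and apical cell did not pass (limma, adjusted p = 0.0604). It passed in 10 of the alternatives, which were 24 left-out libraries and 15 other settings, and not in the rest. The difference of 1.08 ± 0.46 between apical and basal cell did not pass either (adjusted p = 0.0948), and passed without basal cell Ler replicate 1 (1.38, adjusted p = 0.0331). Of the ACR4 relatives on the receptor list, CCR3 and CCR4 were lower in embryo proper than suspensor (adjusted p = 0.0101 and 0.002). CCR3 averaged 0.312 ± 0.237 against 8.11 ± 8.21 FPKM, and CCR4 was at 0 in all 6 embryo proper libraries against 5.14 ± 5.31. CCR1 and CCR2, also on that list, were not called (0.17 and 0.58, limma, adjusted p = 0.738 and 0.167).

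ALE2, a receptor kinase gene that acts with ACR4 in epidermal development (chr2:8755852-8760298, minus strand, 8 exons), was highest in the suspensor. It stood at 8.46, 10.34 and 14.03 FPKM in the suspensor with a Col mother and at 21.13, 10.8 and 16.9 with a Ler mother. In the basal cell it stood at 6.54, 4.84 and 3.35 with a Col mother and at 5.42, 5.7 and 9.72 with a Ler mother. Only basal cell Ler replicate 3, at 9.72, reached into the suspensor range. The means were 13.6 ± 4.75 FPKM in the suspensor, 9.0 ± 3.1 in the embryo proper, 7.34 ± 5.45 in the apical cell and 5.93 ± 2.14 in the basal cell, with overlapping ranges between neighbours. ALE2 rose from the basal cell to the suspensor by 1.07 ± 0.36 on the log2 scale (limma, adjusted p = 0.0201). It lost that call without the 4 libraries of other kit wording, all of them of the basal lineage (1.00, adjusted p = 0.108), with library weights (1.12, adjusted p = 0.0712) and in each cross alone (1.02 and 1.11, adjusted p = 0.136 and 0.0986).

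ICE1, the helix-loop-helix transcription factor gene (chr3:9832667-9835279, minus strand, 4 exons), had the highest level of the 9 in every cell type. It stood at 218.64, 188.87 and 211.31 FPKM in the apical cell with a Col mother and at 198.12, 201.27 and 226.61 with a Ler mother. In the basal cell it stood at 116.44, 136.72 and 140.63 with a Col mother and at 129.75, 159.22 and 98.7 with a Ler mother. All 6 apical cell libraries lay above all libraries of the other 3 cell types. The means were 207 ± 14.0 FPKM in the apical cell, 144 ± 13.6 in the embryo proper, 130 ± 20.9 in the basal cell and 126 ± 39.5 in the suspensor, and the last 3 had overlapping ranges.

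ICE1 was higher in apical than basal cells by 0.68 ± 0.18 on the log2 scale (limma, adjusted p = 0.00671), a 1.60-fold difference. That call was lost with the kit wording as covariate (0.59, adjusted p = 0.0502) and with either mother alone (0.65 for Col and 0.71 for Ler, adjusted p = 0.0877 and 0.0587). It fell by 0.53 ± 0.18 between apical cell and embryo proper (limma, adjusted p = 0.0336). The second call was lost without any 1 of apical cell Ler replicates 2 and 3, apical cell Col replicates 1 and 3, embryo proper Ler replicates 1, 2 and 3, and embryo proper Col replicate 2, with adjusted p-values up to 0.0899. It was also lost with quantile normalization (-0.39, adjusted p = 0.0979), median-ratio scaling (-0.39, adjusted p = 0.12) and no trend (adjusted p = 0.0804), and with a Col or Ler mother alone (adjusted p = 0.227 and 0.192). SCRM2, its close relative, was at 0 in all 6 suspensor libraries and averaged 1.17 ± 2.06, 6.03 ± 5.4 and 5.77 ± 2.23 FPKM in the apical cell, basal cell and embryo proper. The stomatal helix-loop-helix genes SPCH, MUTE and FAMA, whose products pair with ICE1 in leaves, were listed at 0 in every library.

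DEK1, the calpain gene (chr1:20653740-20665110, minus strand, 31 exons), was lowest in the apical cell. It stood there at 1.22, 5.8 and 0.57 FPKM with a Col mother and at 3.75, 1.88 and 4.38 with a Ler mother. In the basal cell it stood at 11.59, 13.18 and 10.86 with a Col mother and at 9.18, 3.84 and 5.43 with a Ler mother. The 3 basal cell libraries with a Col mother were above every apical cell library, and those with a Ler mother overlapped them. The means were 9.01 ± 3.66 FPKM in the basal cell, 6.56 ± 3.24 in the suspensor, 6.37 ± 1.55 in the embryo proper and 2.93 ± 2.03 in the apical cell.

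DEK1 was lower in apical than basal cells by 1.43 ± 0.38 on the log2 scale (limma, adjusted p = 0.00851), a 2.70-fold difference on that scale. With a Ler mother alone the difference was -0.70 (adjusted p = 0.436), and with a Col mother alone -2.16 (adjusted p = 0.00983). Whether the crosses differ in it was not tested. The embryo proper was 1.06 ± 0.38 above the apical cell, just outside the threshold (limma, adjusted p = 0.0517). That difference passed in 11 of the alternatives, which were 24 left-out libraries and 15 other settings, and not in the rest. Embryo proper and suspensor differed by 0.04 ± 0.38 (adjusted p = 0.951). DEK1 overlaps AT1G55340 on the opposite strand by 25 bases, so a small part of its values is uncertain; AT1G55340 averaged 47.9, 43.6, 110 and 32.7 FPKM in apical cells, basal cells, the embryo proper and the suspensor.

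**Figure D3:**
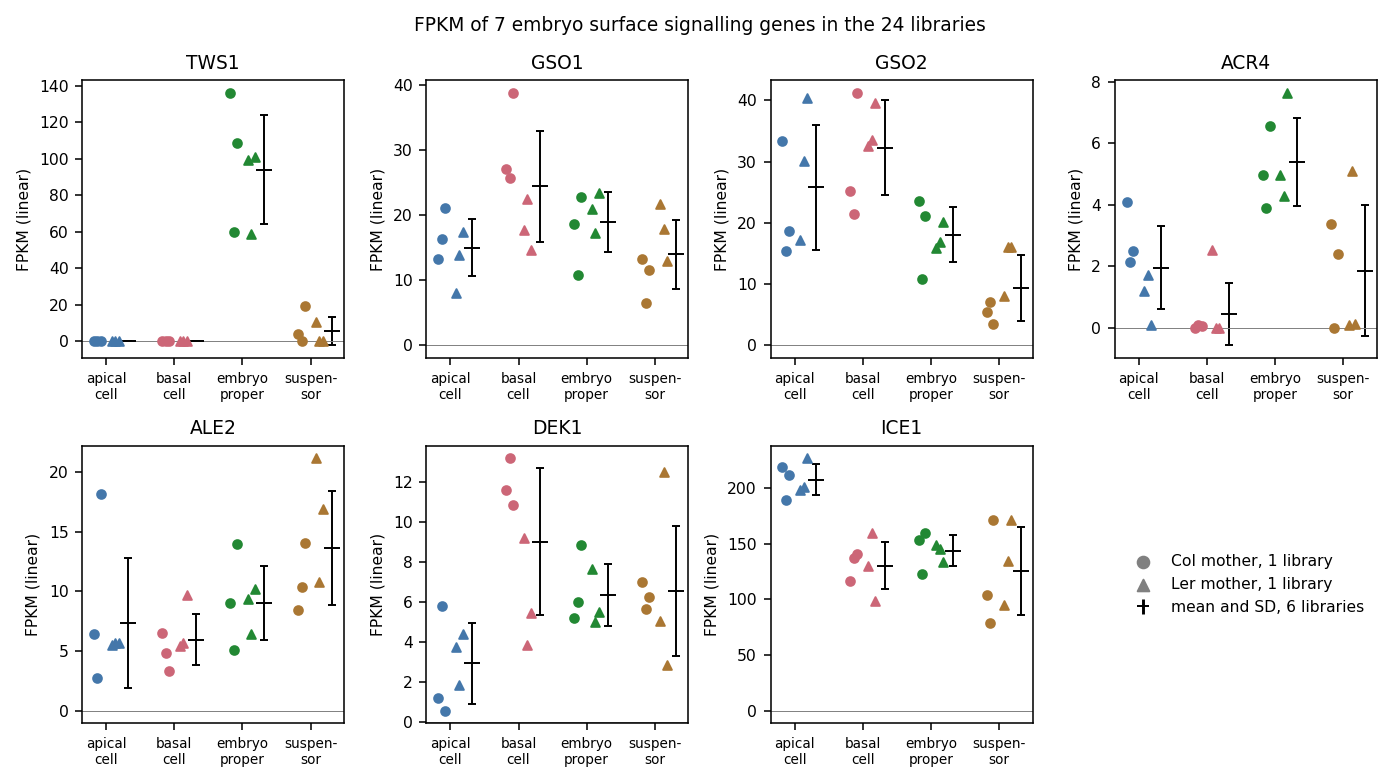
FPKM of the 7 genes that were tested, on linear axes that differ between panels; each symbol is 1 library, circles for a Col mother and triangles for a Ler mother, and black bars give the mean and SD of 6 libraries. TWS1 is at 0 in apical and basal cells and averages 94.1 in the embryo proper; ICE1 averages 207 in the apical cell.

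Read together, 7 of the 9 genes reached an FPKM of 1 in 3 or more libraries and were tested. Between apical and basal cell 2 of the 7 were called (ICE1 higher, DEK1 lower), where 24% of all tested genes were called. Between embryo proper and suspensor 3 were called, all higher in the embryo proper (TWS1, ACR4 and GSO2), against 50.9% of all genes. From apical cell to embryo proper 2 were called (TWS1 up, ICE1 down), against 21.9%. From basal cell to suspensor 4 were called (ALE2 and TWS1 up, GSO1 and GSO2 down), against 44.9%. These counts lie close to the shares of all genes and are no result about the set. Comparisons within a stage and along a lineage share libraries. The median difference over all tested genes was 0.12 on the log2 scale between embryo proper and suspensor and -0.15 between suspensor and basal cell, and the values above have not been shifted by it.

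**Figure D4:**
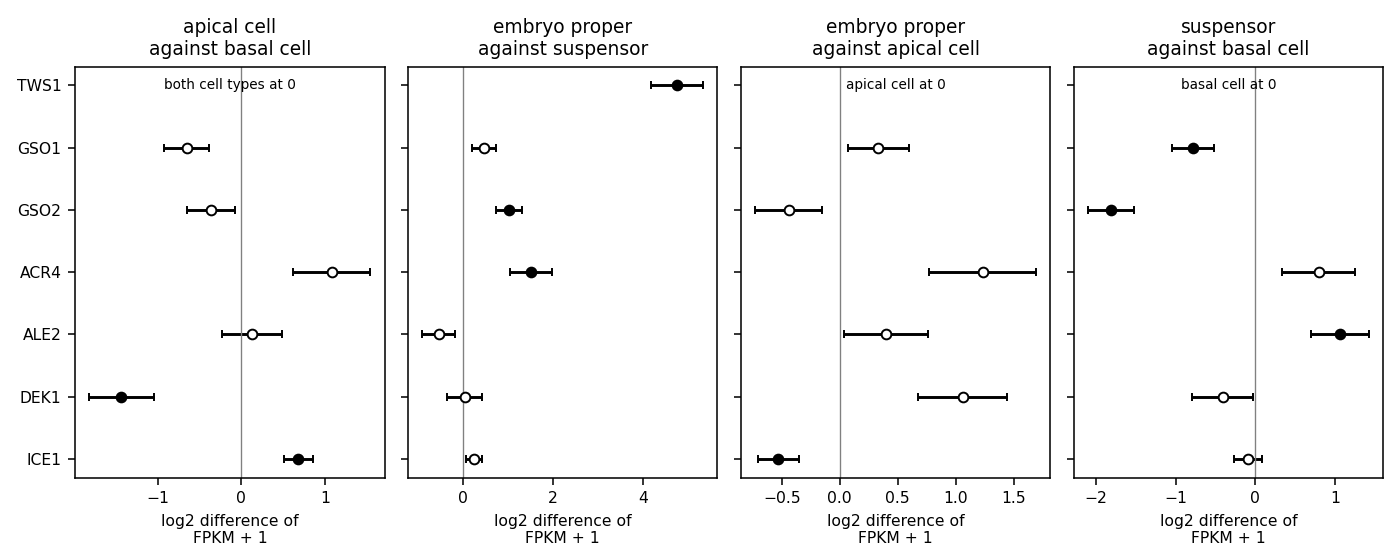
Differences of the 7 tested genes in the 4 comparisons of cell types, on the scale of log2(FPKM + 1) with axes that differ between panels; bars are SE, filled circles have an adjusted p under 0.05, and TWS1 is not drawn where a cell type was at 0. TWS1, GSO2 and ACR4 are filled for embryo proper against suspensor, and GSO2 is the lowest for suspensor against basal cell, at -1.82.

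Whether the apical-to-basal difference itself changed between the stages was tested as an interaction, the embryo proper minus suspensor difference less the apical minus basal difference. It was called for 4 of the 7 genes, where 35.5% of all genes were called. For GSO2 it was 1.37 ± 0.41 (limma, adjusted p = 0.0114). For GSO1 it was 1.11 ± 0.38 (adjusted p = 0.0243), from -0.65 at the 2-celled to 0.46 at the 32-celled stage, neither of which passed alone. For TWS1 the call (adjusted p = 9.24e-05) repeats its difference at the 32-celled stage, since it was at 0 before. For DEK1 it was 1.47 ± 0.54 (adjusted p = 0.0388). All 4 were positive, so that embryo proper relative to suspensor stood higher than apical cell relative to basal cell. Among all genes called, 3506 were positive and 2949 negative, and the median over all tested genes was 0.13. Neither the number nor the direction of these 4 calls is a result about the set.

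Some of these calls are narrow. DEK1 lost it without any 1 of 14 libraries: apical cell Ler replicate 2 and Col replicates 1 and 3, basal cell Ler replicate 1 and Col replicates 1 and 2, embryo proper Ler replicates 1 and 3 and Col replicates 2 and 3, and suspensor Ler replicates 1 and 3 and Col replicates 2 and 3, with values from 1.25 to 1.5 and adjusted p-values from 0.0501 to 0.0770. GSO1 lost it without embryo proper Col replicate 3 (adjusted p = 0.0532), with the kit wording as covariate (0.0506) and without the 4 libraries of other wording (0.0564). GSO2 lost it without those 4 libraries (1.04, adjusted p = 0.086). With a Ler mother alone the interaction was 0.75 for GSO2, 0.73 for GSO1 and 0.73 for DEK1 (adjusted p = 0.373, 0.347 and 0.532).

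The 2 directions of the cross were compared within each cell type, as Col mother minus Ler mother. None of the 7 genes was called by limma in the apical cell, the basal cell, the embryo proper or the suspensor, where 0.428%, 7.06%, 0% and 4.2% of all genes were called. At an unadjusted p under 0.05 there were 0, 0, 0 and 1 of the 7, against 7.35%, 21.9%, 0.516% and 18.8% of all genes. The 3 libraries of each mother did not overlap for 1, 2, 0 and 1 of the 7, against 14.2%, 24%, 7.27% and 12.2% of all genes. Neither count is a result about the set. The gene with an unadjusted p under 0.05 was GSO2 in the suspensor, at 5.32 ± 1.82 FPKM with a Col mother and 13.4 ± 4.62 with a Ler mother (SD, n = 3 each), with no overlap. Its difference was -1.18 ± 0.41 on the log2 scale (adjusted p = 0.105), and it passed without suspensor Ler replicate 1 (-1.48, adjusted p = 0.0407). Of the others without overlap, ACR4 in the apical cell stood at 2.14 to 4.09 FPKM with a Col mother and 0.07 to 1.72 with a Ler mother (adjusted p = 0.854). DEK1 and GSO1 in the basal cell made up the rest, with Col mother means of 11.9 ± 1.19 and 30.5 ± 7.16 against 6.15 ± 2.74 and 18.3 ± 3.93 (adjusted p = 0.35 and 0.284).

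The genes around the pathway were read from fixed lists. Of 10 genes for sulfated peptides and their maturation, 3 could be tested. TPST, the enzyme that sulfates such peptides, averaged 9.74 ± 3.72, 12.7 ± 3.76, 9.12 ± 2.64 and 8.93 ± 4.71 FPKM in apical cells, basal cells, the embryo proper and the suspensor, with no call in any comparison of cell types. AT2G05920, a subtilase gene, averaged 28.2 to 42.0 FPKM, also with no call. AT5G04030 was at 0 in all 6 suspensor libraries and at most 1.31 in the embryo proper. It fell from apical cell to embryo proper (-2.15 on the log2 scale, adjusted p = 0.00116) and from basal cell to suspensor (adjusted p = 0.00275), from means of 6.03 ± 2.42 and 4.40 ± 5.02. AT2G16385 and AT4G34600 were at 0 throughout.

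Of 16 co-receptors, receptor relatives and kinases, 14 were tested. Between apical and basal cell 2 were called higher and 2 lower (4 of 14, against 24% of all genes), with a median log2 difference of -0.09 beside 0.03 for all genes. The kinase gene MKK4 and MCA1, whose product is a mechanosensitive calcium channel component, were higher in the apical cell by 2.39 and 1.93 (adjusted p = 0.000287 and 0.000415), and SERK5 and SERK4 were lower by 3.4 and 1.36. Between embryo proper and suspensor 2 were called higher and 6 lower (8 of 14, against 50.9%), with a median of -0.17 beside 0.12. The co-receptor gene SERK2 was higher by 1.79 (adjusted p = 0.00523), and SERK5 lower by 2.91 (adjusted p = 4.49e-07). From apical cell to embryo proper 2 rose and 0 fell (2 of 14, against 21.9%), namely SERK1 by 0.98 (adjusted p = 0.0213) and SERK2 by 1.42 (adjusted p = 0.0483), with a median of 0.11 beside -0.07. From basal cell to suspensor 5 rose and 0 fell (5 of 14, against 44.9%), led by MCA1 (2.50), MPK3 (2.21), CCR4 (1.63) and MKK4 (1.39), with a median of 0.42 beside -0.15. SERK4 and SERK5 share 23.1% and 24.8% of their words of 50 bases, so their values are uncertain where counting could split reads.

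Of 30 epidermal identity and cuticle genes, 25 were tested. From apical cell to embryo proper 15 rose and 3 fell (18 of 25, against 21.9% of all genes), with a median log2 difference of 1.78 beside -0.07 for all genes. The 3 that fell were HDG12 (133 ± 18.6 to 58.2 ± 5.36 FPKM), HDG11 (26.2 ± 5.91 to 12.7 ± 2.49) and ANL2 (15.1 ± 4.28 to 2.20 ± 0.774). PDF1, a protodermal factor, went from 6.60 ± 5.90 to 4614 ± 662 FPKM, and LTPG1, a lipid transfer protein of the cuticle, from 0.57 ± 0.827 to 693 ± 273. MYB94, a regulator of wax synthesis, went from 0.128 ± 0.175 to 66.3 ± 19.4, and LACS2, an acyl-CoA synthetase for cutin, from 0.87 ± 1.3 to 69.7 ± 11.8. From basal cell to suspensor 12 rose and 4 fell (16 of 25, against 44.9%), with a median of 0.94 beside -0.15. The 4 that fell were HDG12 (-1.84 on the log2 scale), ANL2 (-2.14), GPAT4 (-1.91) and ATML1 (-0.55), and HDG11 rose (1.98). PDF1 reached 1156 ± 638 FPKM in the suspensor, MYB94 98.5 ± 35.5, FDH 103 ± 22.3 and MYB96 112 ± 47.9, against 10.2 ± 10.9, 0, 7.72 ± 10.01 and 9.85 ± 10.6 in the basal cell. TWS1 was listed at 0 in the 12 libraries in which PDF1 was at most 30.69, which are all the apical and basal cell libraries. In the suspensor libraries, ordered by TWS1 from 19.22 down to 0, PDF1 stood at 888.2, 1427.39, 1420.83, 2159.49, 478.57 and 561.16 FPKM.

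Between embryo proper and suspensor 13 of the 25 were higher in the embryo proper and 1 lower (14 of 25, against 50.9%), with a median of 0.91 beside 0.12. GPAT4, an acyltransferase of cutin synthesis, was at 19.7 ± 7.45 FPKM in the embryo proper and at 0 in all 6 suspensor libraries. LACS2, LTPG1 and HTH were higher in the embryo proper by 4.32, 3.4 and 3.28 on the log2 scale (adjusted p = 8.82e-06, 0.000218 and 2.82e-06). Between apical and basal cell 6 were higher in the apical cell and 1, PDF2, lower by 2.12 (adjusted p = 7.91e-05; 7 of 25 called, against 24%), with a median of 0.40 beside 0.03. MYB96, ABCG32 and ANL2 were higher there by 4.10, 1.57 and 1.49. ATML1, the homeobox gene of epidermal identity, was present in all cell types, at 55.4 ± 9.51, 47.4 ± 9.45, 69.3 ± 7.97 and 33.3 ± 13.4 FPKM.

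**Figure D5:**
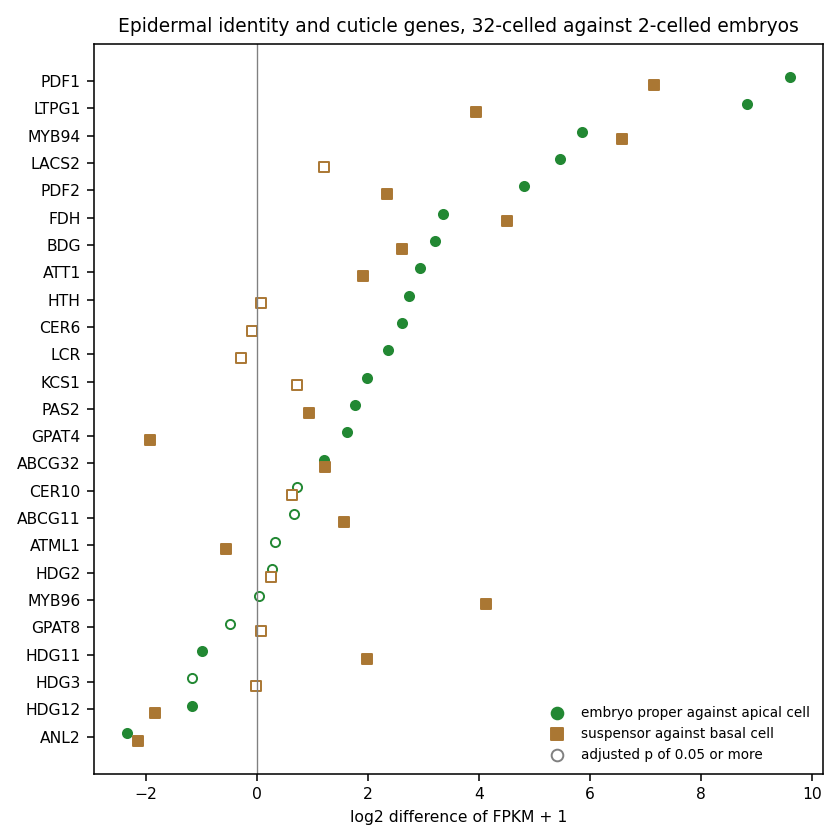
Log2 differences of FPKM + 1 for the 25 tested epidermal identity and cuticle genes between 32-celled and 2-celled embryos, circles for embryo proper against apical cell and squares for suspensor against basal cell; filled symbols have an adjusted p under 0.05. 15 circles are filled to the right and 3 to the left, with PDF1 at the top at 9.59.

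The genes whose pattern was most like that of each member were found by Pearson's r over the 8 group means of log2(FPKM + 1), among 13258 genes with a group mean of at least 10 FPKM. The 8 points share libraries and depth, and r is a description only. For TWS1 they were AT5G40630 (r = 0.993), SOB3 (0.993) and AIL6 (0.991), which were likewise at 0.288 FPKM or less in apical and basal cells and averaged 16.1, 10.9 and 12.3 in the embryo proper. For ACR4 they were FLA1 (0.959), AT5G41060 (0.95) and AT1G53380 (0.947). For GSO2 they were EMB2757 (0.991), AT2G45100 (0.984) and AT3G57590 (0.982), and for GSO1 GSL8 (0.952), AT1G36990 (0.944) and NF-YC11 (0.935). For ALE2 they were XLG3 (0.973), SUT4 (0.971) and ACD1-LIKE (0.969), for ICE1 AT1G14770 (0.973), AT5G67000 (0.973) and DL3 (0.973), and for DEK1 GLYR2 (0.972), AT1G76440 (0.955) and AT4G00590 (0.951). Among the members themselves, r over the same 8 means was 0.831 for ACR4 with TWS1, 0.587 for GSO1 with GSO2, 0.306 for ALE2 with ACR4 and -0.794 for ICE1 with DEK1.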

How the data were processed

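Messenger RNA of embryo cells was extracted on Dynabeads and amplified with a SMART-Seq low-input kit, per the labels' protocols, which name Nextera XT for 20 libraries and Nextera XT or NEBNext for 4 (from the basal cell, Ler mother 2 and 3 and Col mother 3; from the suspensor, Ler mother 1). The authors deposited FPKM per locus, totals over both parental alleles; TopHat2 2.1.1, RSEM and TAIR10 are named in the submitters' processing notes, and strand use in counting is not given in the sources used here. Columns were grouped by sample title. The series text calls the replicates independent, but no label ties them to plants, so p-values measure the spread between these libraries. The labels' 2-celled stage was used where the series text says 1-cell.

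Values were taken as log2(FPKM + 1). The 18206 genes that reached an FPKM of 1 in 3 or more libraries were fitted in limma 3.58.1 (R 4.3.3), with 8 group means over all 24 libraries, a trended eBayes and Benjamini-Hochberg adjustment over all of them; the threshold was 0.05. The fit was tested on simulated data. Such log differences understate changes of low genes. Depth was estimated from the smallest steps of FPKM, assuming fragments of 200 bases, and the levels set by 3 fragments cover counting error only. Sequences and positions come from RefSeq TAIR10.1. The members, the 100 genes in 7 lists and the tests were chosen with earlier results of these data known. All members are named. From each list the rule names, for each comparison of cell types, up to 4 called genes with the largest difference, or otherwise the 2 highest by mean, and lineage and endosperm markers may be named whatever their values. The epidermal and cuticle genes that fell along a lineage, and CCR1 and CCR2, are named beside this rule. Alternatives were a pseudocount of 0.1 or 5, dropping the filter or raising it to an FPKM of 5, TPM, quantile and median-ratio scaling, library weights, the kit wording as covariate or left out, a replicate block, no trend, a fit of only the groups compared, each cross alone and each library left out. The comparisons in each cross alone took their spread from the fit of all 24 libraries. Tables and figures used Python 3.11.15, numpy 2.4.6, pandas 2.3.3 and matplotlib 3.10.9.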

Additional observations from a re-analysis of the deposited data

Results flagged for a closer look

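Values were compared within the 6 libraries of a cell type, in 27 sets of a gene and a cell type, for a library that stands apart from the other 5. For normally distributed values chance flags about 1 in 20 such sets, and 2 were found. That rate need not hold for FPKM, least for sets near 0 such as ACR4 in the basal cell. ALE2 was at 18.14 FPKM in apical cell Col replicate 3, where the other apical cell libraries held at most 6.41. ACR4 was at 2.51 FPKM in basal cell Ler replicate 1, where the others held at most 0.09.

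The interaction of lineage and stage was called for 4 of the 7 tested genes, beside 35.5% of all 18206 genes (limma, adjusted over all of them). The change on the log2 scale was 1.11 for GSO1 (adjusted p = 0.0243), 1.37 for GSO2 (adjusted p = 0.0114), 4.76 for TWS1 (adjusted p = 9.24e-05) and 1.47 for DEK1 (adjusted p = 0.0388). The DEK1 call was lost in 14 of the 24 fits that left out 1 library.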

How the results depend on the processing

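No called gene changed direction under any alternative run. The 4 cell-type comparisons and the interaction called 2, 3, 2, 4 and 4 of the 7 tested genes (in the order of the report). With 1 library left out these counts ran from 2 to 3, 3 to 4, 1 to 4, 3 to 4 and 2 to 4, and for the crosses from 0 to 0 in the apical cell, basal cell and embryo proper and from 0 to 1 in the suspensor. Beside the libraries named in the report, embryo proper against apical cell gave 4 without basal cell Ler replicate 1 or suspensor Ler replicate 2, as ACR4 and DEK1 joined. Apical against basal cell gave 4 with library weights, 1 with the kit wording as covariate, 1 with a Col mother alone and 0 with a Ler mother alone. Embryo proper against suspensor gave 5 with quantile normalization. Embryo proper against apical cell gave 4 with library weights, 4 in a fit of only the groups compared, and 1 with either mother alone. Suspensor against basal cell gave 2 with library weights, 1 without the 4 libraries of other kit wording and 1 with a Ler mother alone. The interaction gave 2 without those 4 libraries and 1 with a Ler mother alone. The crosses in the basal cell gave 1 with library weights (DEK1), and those in the suspensor 1 without the 4 libraries (GSO2). The cause of these changes was not tested. A fit with 1 library left out holds fewer samples, and each cross alone compares fewer samples. Over 84 pairs of libraries of the same replicate number r ran from -0.178 to 0.303, with 3 over 0.1. Pairs of different numbers were not read, so whether the numbers pair the libraries cannot be told. The replicate block gave 2, 3, 2, 4 and 4 calls and changed none.

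Over all genes, apical against basal cell gave 4364 calls, but 6715 with library weights and 2532 or 2668 with a Col or Ler mother alone; embryo proper against apical cell 3984, but 6873 with weights, 6462 in a fit of only the groups compared and 2350 or 2250 in each cross; the interaction 6455, but 3823 with a Col mother. The crosses gave 78, 1286, 0 and 765 calls, but 138, 5044, 174 and 14 with weights and 17, 319, 1 and 0 in a fit of only the groups compared, 124 (apical cell) and 1477 (suspensor) without the 4 libraries, and 12 (embryo proper) with no filter. With 1 library left out the crosses ran from 38 to 98, 569 to 1698, 0 to 4 and 556 to 1494; the largest moves were 38 without apical cell Ler replicate 1, 802, 757 and 569 without basal cell Col replicates 1 and 2 and Ler replicate 2, and 1494 and 1330 without suspensor Ler replicates 3 and 1. In the shallowest library 3 fragments come to 0.637 FPKM for TWS1, 0.244 for ZOU and 0.0977 for ALE1.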
